A study of Mus musculus with 15 samples.

Results

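The genes examined here are Tet1, Tet2, Tet3, Dnmt3a and Dnmt1, which encode enzymes that add methyl groups to cytosine in DNA or oxidise them, in the nucleus accumbens of cocaine-treated and saline-treated mice. The members were every deposited region or interval that overlapped 1 of 5 fixed windows around these genes by at least 1 bp. They numbered 109 of 82590 in all. Of these, 95 of 49712 were regions of histone H3 acetylated at lysine 27 (H3K27ac), 6 of 11748 were regions of 5-hydroxymethylcytosine (5hmC), 6 of 10575 were intervals of the cocaine-specific 5hmC enhancer list and 2 of 10555 were intervals of the saline-specific list. In mm9 the windows were chr10:62220000-62420000 for Tet1, chr3:133080000-133260000 for Tet2, chr6:83260000-83460000 for Tet3, chr12:3760000-3960000 for Dnmt3a and chr9:20660000-20810000 for Dnmt1. Given the windows, membership depended on position only.

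Dnmt1 is the maintenance methyltransferase, which copies methylation onto the new DNA strand after replication, and Dnmt3a is a de novo methyltransferase that stays expressed in adult neurons. The 3 Tet enzymes oxidise 5-methylcytosine to 5hmC, a base that is abundant in neurons and is an intermediate of demethylation. H3K27ac marks active promoters and enhancers, so its level over these genes is a measure of the state of their regulatory DNA and not of their transcripts.

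The tissue, a ventral striatal part of the reward circuit, came from C57BL/6 mice. Treated mice had received cocaine at 20 mg/kg by intraperitoneal injection once a day on 7 days, and controls are labelled saline, although the treatment text of the controls repeats the cocaine schedule. H3K27ac ChIP-seq and 5hmC capture sequencing each had 3 cocaine and 3 saline libraries, with 1 H3K27ac input library per treatment. Age, sex, the interval after the last injection of each library, and whether a library came from 1 animal or from a pool are not given in the sources used here. The p-values therefore speak of libraries and of nothing else, and part or all of the spread among libraries may be technical. For most H3K27ac regions the test took its spread from a trend over all regions and not from the region's own libraries. The tissue is bulk, and a change in the share of a cell type and a change within cells cannot be told apart. The authors' tables list regions that a caller had picked as candidate differences and are not a scan of the windows, so stretches with no listed region may still carry either mark.

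CpG sites are the main substrate of these enzymes, and the 250 bases before the annotated start of each Tet gene are shown to set out how many such sites each promoter holds. The sequences are from RefSeq in build GRCm38.p6, on the minus strand, written 5′ to 3′, with every CG in capitals. Their positions are chr10:62887325-62887574 for Tet1, chr3:133544391-133544640 for Tet2 and chr6:83441679-83441928 for Tet3, on another scale than the mm9 positions of the measured regions.
Tet1: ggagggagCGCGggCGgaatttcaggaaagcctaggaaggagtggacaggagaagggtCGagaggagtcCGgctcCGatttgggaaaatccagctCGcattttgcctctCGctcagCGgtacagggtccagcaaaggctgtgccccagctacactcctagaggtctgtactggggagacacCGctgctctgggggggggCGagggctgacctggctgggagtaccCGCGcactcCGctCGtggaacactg
Tet2: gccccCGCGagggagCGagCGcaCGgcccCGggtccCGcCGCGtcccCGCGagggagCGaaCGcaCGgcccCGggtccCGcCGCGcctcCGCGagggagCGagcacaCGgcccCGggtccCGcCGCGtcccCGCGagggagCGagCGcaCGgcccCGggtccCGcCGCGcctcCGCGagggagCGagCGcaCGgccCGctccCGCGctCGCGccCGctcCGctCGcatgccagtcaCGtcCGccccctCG
Tet3: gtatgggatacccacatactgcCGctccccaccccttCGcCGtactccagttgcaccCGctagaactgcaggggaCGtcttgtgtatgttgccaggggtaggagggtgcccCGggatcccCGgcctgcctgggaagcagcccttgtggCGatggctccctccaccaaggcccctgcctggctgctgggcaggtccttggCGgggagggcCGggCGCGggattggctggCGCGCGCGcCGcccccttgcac
The motif searched was CG, which reads the same on both strands. The Tet2 stretch held 51 CG, the Tet1 stretch held 15 and the Tet3 stretch held 17. Of 32851 RefSeq promoter stretches of the same length, 0.067% held at least as many as Tet2, 27.3% at least as many as Tet1 and 23.5% at least as many as Tet3, and the median was 6. All 5 of the 5 genes were matched in the promoter table. Dnmt3a has 3 annotated starts with 38, 40 and 15 CG, and Dnmt1 has 3 with 2, 7 and 26. Whether a measured region covers any of these stretches was not determined.

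The 5 windows differed widely in how many H3K27ac regions they held. The Dnmt3a window held 59 regions, which together covered 48.7% of its 200 kb. Tet3 held 17 regions (13.0% of the window covered), Dnmt1 held 11 in a window of 150 kb (9.87%), Tet1 held 7 (4.25%), and Tet2 held 1 in a window of 180 kb (0.833%). Among 13193 consecutive stretches of 200 kb over the genome the median was 1 region and the highest was 74. Only 8 of them (0.0606%) held as many as the Dnmt3a window, 6.02% held at least the 17 of Tet3, and 18.2% at least the 7 of Tet1. A lone region, as at Tet2, was common, since 58.3% of the stretches held at most 1. Of the 95 member regions 52 overlapped a neighbouring one, 34 of them at Dnmt3a, so reads in the shared part were counted in both. In 29 of 29 overlapping neighbours among the members, 1 was higher and the other lower after cocaine. The counts are therefore of listed pieces and not of separate acetylated stretches. The windows are wider than the genes, which span 52.7 kb (Dnmt1) to 113.0 kb (Dnmt3a) in the RefSeq annotation, and regions were not assigned to exons, introns or promoters because no mm9 annotation was used here. The nearest protein-coding neighbours on either side in the RefSeq order are Ccar1 and Slc25a16 for Tet1, Ppa2 and Cxxc4 for Tet2, Bola3 and Dguok for Tet3, Dtnb and Pomc for Dnmt3a, and Eif3g and S1pr2 for Dnmt1.

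**Figure D1:**
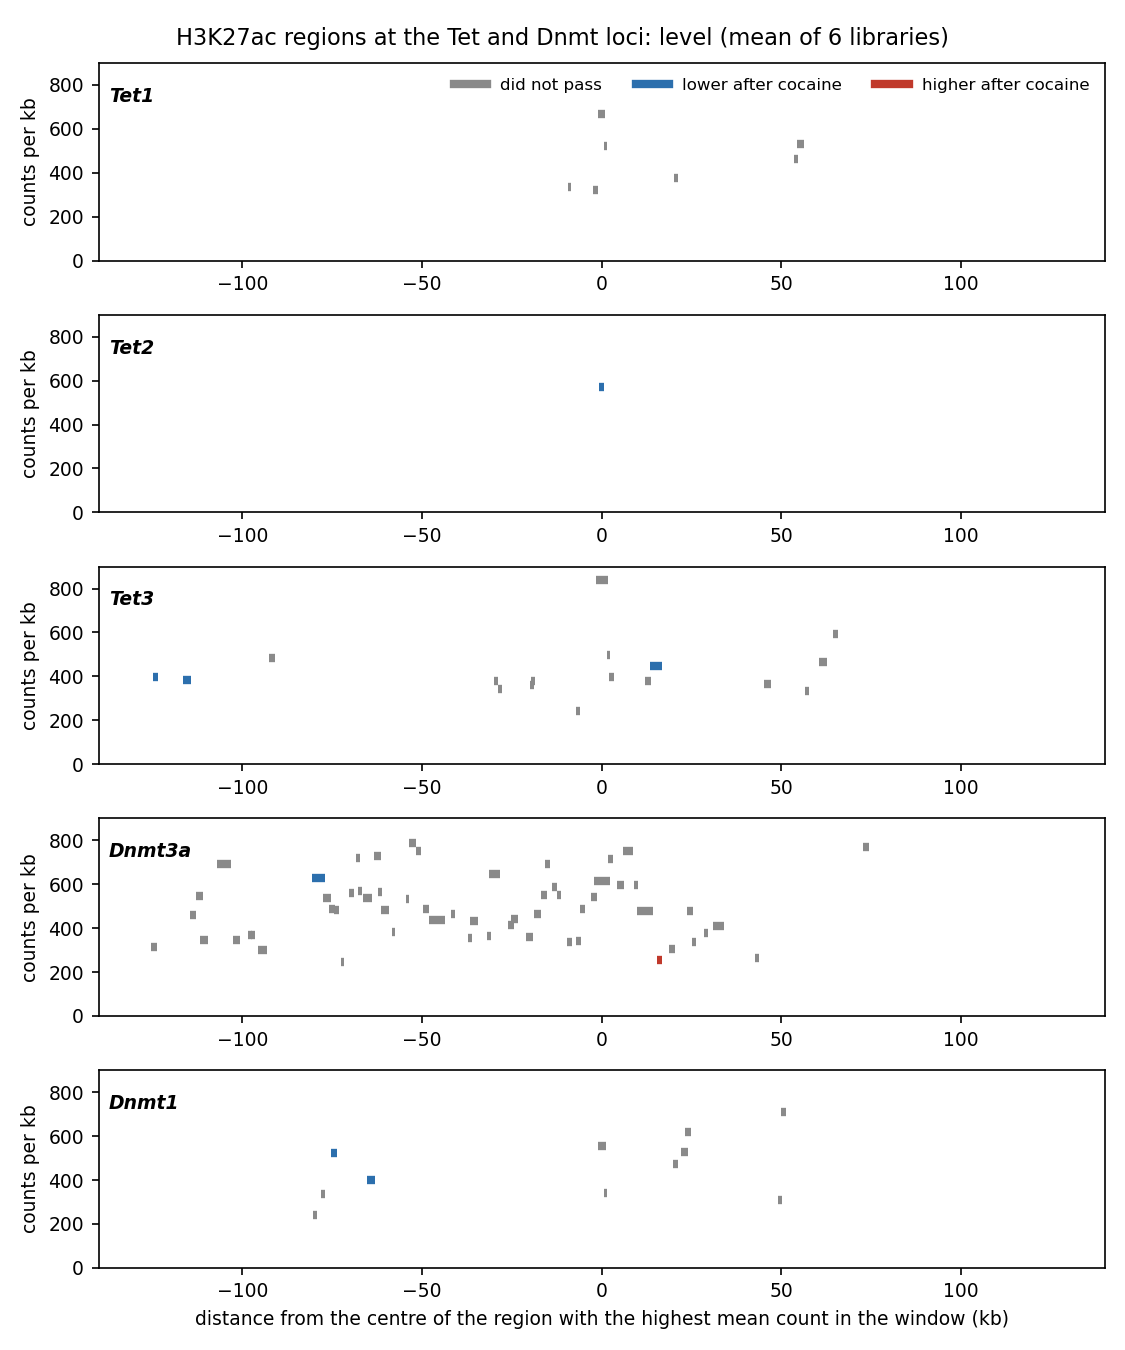
Each bar is 1 listed H3K27ac region of a window, drawn to scale along the horizontal axis as distance in kb from the centre of the region with the highest mean count, with its mean normalised count per kb over 6 libraries on the vertical axis. Grey bars did not pass the test between cocaine and saline, blue bars were lower and the red bar was higher after cocaine. The Dnmt3a panel holds 59 bars and the Tet2 panel 1.

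Per kb of region, the median H3K27ac level of the 95 regions was 464 normalised counts, and that of all 49712 regions was 373. In saline, the region of highest level per kb in each window had 848 ± 29.0 at Tet3, 800.0 ± 19.9 at Dnmt3a (chr12:3832601-3834500), 721 ± 26.6 at Dnmt1 (chr9:20806801-20808200), 678 ± 7.24 at Tet1 and 592 ± 26.2 at Tet2 (SD, n = 3 each). At Tet1, Tet2 and Tet3 this was also the region with the highest mean count, and at Dnmt3a and Dnmt1 it was another, shorter one. The libraries of Tet3 (822 to 879) and Dnmt3a (784 to 822) overlapped, while those of Dnmt3a, Dnmt1 (705 to 752), Tet1 (670 to 684) and Tet2 (565 to 617) did not overlap each other. Each value is the highest among the regions of its window, whose number differs, so the order is one of picked regions and not of loci. The window medians per kb over 6 libraries had another order: 570 at Tet2 (1 region), 482 at Dnmt3a, 473 at Dnmt1, 463 at Tet1 and 383 at Tet3. The Tet3 region lay above 98.8% of all regions in level per kb and the Tet1 region above 93.4%.

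Most H3K27ac regions at the 5 loci did not pass the test between cocaine and saline. Of 95 regions, 7 were lower and 1 was higher after cocaine at an adjusted p under 0.05 (limma on log2 of the normalised count plus 1, Benjamini-Hochberg over all 49712 regions), and 87 did not pass, with adjusted p from 0.0512 to 0.949. The share that passed was 8.42%, against 13.0% of all regions, and the share that passed as lower was 7.37% against 9.62%. The share that passed as higher was 1.05% against 3.42%. The caller had picked all these regions as candidate differences from the same libraries. The p-values and the shares over all regions therefore come after that picking, and its effect on them was not tested. The 8 that passed were spread unevenly. At Tet2 the 1 region passed, at Tet3 3 of 17 (17.6%) and at Dnmt1 2 of 11 (18.2%). At Dnmt3a 2 of 59 passed (3.39%), and at Tet1 0 of 7. Dnmt3a held 59 of the 95 regions, so the pooled shares rest mostly on that window. The median log2 fold change of the members was -0.02, as it was over all regions (-0.02), and the members ranged from -0.29 to 0.16. Every cocaine value lay below every saline value in 11 regions (11.6%, against 17.1% of all regions) and above in 10 (10.5%, against 12.0%), and the groups overlapped in the other 74.

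The limma fit gave weight to a region's own spread in only 850 of 49712 regions, and in 2 of the 95 members. For the others, the standard errors and the 95% interval given with fold changes do not show the scatter of the region's own libraries. Those errors and the calls rest on a spread taken from a trend over all regions. With each region's own variance in its place, 0 of the 95 members passed (adjusted p 0.281 to 0.329 for the 8 regions), and 2 regions passed in the whole table. With that variance 10 members had an unadjusted p under 0.05, 5 of the 8 among them. No share over all regions is set beside that count. The split of directions moved with the scaling of the libraries. It was 7 lower and 1 higher as deposited, and 6 lower and 7 higher under cyclic loess scaling. With each library scaled to the same total it was 5 lower and 5 higher. The count that passed among all 49712 regions moved too, from 6479 as deposited to 7449 and 7422 under these scalings. Without cocaine library 1, without cocaine library 2 or without saline library 3 the count of lower regions was 4 in each case. In all 7 lower regions saline library 3 was the highest of the saline libraries, as it was in 54.7% of the members, in 48.1% of all regions and in 81.4% of all regions that passed as lower. Cocaine library 1 was the lowest cocaine library in 6 of the 7 lower regions. It was so in 31.6% of the members, 31.1% of all regions and 46.2% of all regions that passed as lower. Saline library 3 had the lowest mean count per bin of 1000 bp in the file headers, 40.08 against 43.80 to 47.77 in the other 5. The part of either library in the lower calls was not tested beyond leaving it out. In the authors' deposited table the adjusted p-value is under 0.05 in 69 of the 95 regions (72.6%), against 65.9% of all regions. Very small deposited p-values were common also where the change was near 0, as set out under the other observations.

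**Figure D2:**
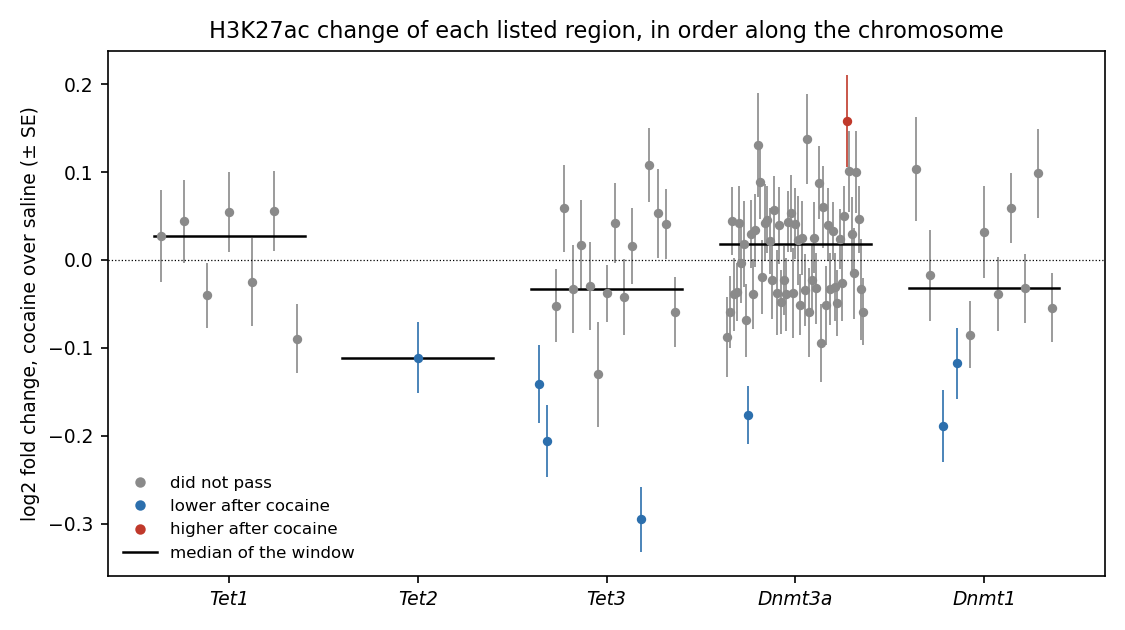
Each point is 1 of the 95 H3K27ac regions, placed by window and in order along the chromosome. The vertical axis gives its log2 fold change of cocaine over saline, with the limma standard error as a bar and the window's median as a black line. For most regions the bar comes from the trend over all regions and not from the scatter of the region's own libraries. The 7 regions that passed as lower are blue, the 1 that passed as higher is red, and the other 87 are grey and lie on both sides of 0.

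At Tet1, the gene which the series title names, no region passed. The region with the highest mean count, chr10:62327401-62329500, had 1412, 1366 and 1375 normalised counts in cocaine libraries 1, 2 and 3 and 1407, 1436 and 1428 in the saline libraries. The groups overlapped, since cocaine library 1 lay above saline library 1. Its log2 fold change was -0.04 with a 95% interval of -0.11 to 0.03 (adjusted p = 0.48). The region of smallest p, chr10:62382701-62384700, had 1029, 1002 and 1064 normalised counts after cocaine and 1074, 1088 and 1131 after saline. Here every cocaine library was below every saline library, but the log2 fold change of -0.09 did not pass (unadjusted p = 0.0215, adjusted p = 0.108). It was the only Tet1 region with an unadjusted p under 0.05, and the count that passed on the regions' own variances was also 0. The other 5 regions had log2 fold changes from -0.03 to 0.06, and the median over the 7 was 0.03.

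At Tet2, whose product lacks the CXXC DNA-binding domain of Tet1 and Tet3, the only listed region was lower after cocaine by a narrow margin. The region, chr3:133206301-133207800, had 781, 840.4 and 846 normalised counts after cocaine and 892, 847 and 925 after saline. The groups did not overlap, but cocaine library 3 and saline library 2 nearly touched. The log2 fold change was -0.11 ± 0.04 (SE, n = 3 against 3, adjusted p = 0.0485). The call was lost without cocaine library 1 (adjusted p = 0.362), without cocaine library 2 (0.0866), without saline library 1 (0.13) and without saline library 3 (0.226). It was also lost under cyclic loess scaling (0.111), with equal library totals (0.0859) and under plain variance moderation (0.0514).

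The Tet3 window had the region with the largest fall among the members. Tet3 is a family member that is expressed in the adult brain. Region chr6:83404901-83408100 had 1226, 1281 and 1361 normalised counts after cocaine and 1532, 1487 and 1733 after saline. All cocaine libraries were well below all saline libraries, and saline library 3 was the highest of the 6. The log2 fold change was -0.29 ± 0.04 (SE, adjusted p = 1.28e-12), a fold of 0.815, and it passed with each of the 6 libraries left out, ranging from -0.34 to -0.23. The smallest of these falls came without saline library 3. With its own variance the unadjusted p was 0.0216 and the adjusted p was 0.281. An overlapping region on its left, chr6:83403501-83405200, had a log2 fold change of 0.02 and did not pass (adjusted p = 0.747). Such an opposite sign was not particular to this place. Of 8607 overlapping neighbours over all regions, 98.4% were of opposite direction.

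Another fall in the Tet3 window lay nearer its left end, and whether that place belongs to Tet3 or to a neighbouring gene was not determined. Region chr6:83275001-83277100 had 699, 754 and 787 normalised counts after cocaine and 832, 836 and 916 after saline. The groups did not overlap, and the log2 fold change was -0.21 (adjusted p = 3.32e-05), with -0.24 to -0.16 over the fits that left out 1 library. Its neighbour chr6:83266501-83268000 had 545, 561 and 598 normalised counts after cocaine and 621, 611 and 647 after saline. The groups did not overlap there either, and its log2 fold change of -0.14 passed (adjusted p = 0.0166), but the call was lost with any of 3 libraries left out: cocaine 1 (adjusted p 0.171), cocaine 2 (0.0951) and saline 3 (0.103). These 2 regions were singled out after their values were seen. The region with the highest mean count, chr6:83389701-83393100, had 2812, 2819 and 2791 normalised counts after cocaine and 2795, 2864 and 2989 after saline. Its groups overlapped, and its log2 fold change of -0.04 (adjusted p = 0.449) became 0.01 under cyclic loess scaling. The other 13 regions of the window did not pass, and the median over all 17 was -0.03.

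Dnmt3a, with the most listed H3K27ac regions of the 5 loci, had 2 that passed, in opposite directions. Region chr12:3805601-3809400 had 2196, 2208 and 2316 normalised counts after cocaine and 2505, 2367 and 2731 after saline. The groups did not overlap, and saline library 3 stood above the rest. The log2 fold change was -0.18 ± 0.03 (SE, adjusted p = 1.05e-05), and it passed with each library left out, from -0.22 to -0.12, the latter without saline library 3. Region chr12:3901701-3903000, among the weakest of the window at 253 normalised counts per kb, had 349, 339 and 351 after cocaine and 323, 306 and 302 after saline. All cocaine libraries lay above all saline libraries, with a log2 fold change of 0.16 ± 0.05 (SE, adjusted p = 0.0274). That call was lost without cocaine library 1 (0.109), 2 (0.059) or 3 (0.0902) and without saline library 2 (0.069) or 3 (0.12). The region with the highest mean count, chr12:3884101-3888500, had 2790.2, 2769 and 2669 normalised counts after cocaine and 2719, 2641 and 2681 after saline. The groups overlapped, and the log2 fold change was 0.03 (adjusted p = 0.508), or 0.08 and past the threshold under cyclic loess scaling (adjusted p = 0.0174).

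In the Dnmt3a window all cocaine values lay above all saline values in 8 regions (13.6%), near the 12.0% over all regions. They lay below in 3 (5.08%), against 17.1% over all regions. The log2 fold changes of the 8 ranged from 0.05 to 0.16, with adjusted p from 0.0274 to 0.333, and only the region named above passed. Of the 8, 4 lay within 19.9 kb, between chr12:3896001 and chr12:3915900, where 5 of 6 listed regions had a positive log2 fold change. That stretch was picked after the values were seen, and no like count over the genome is set beside it. Of the 59 regions 30 had a positive and 29 a negative log2 fold change, and the median was 0.02.

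In the Dnmt1 window 2 regions passed and both were lower after cocaine. Whether they belong to Dnmt1 or to a neighbouring gene was not determined. Region chr9:20681601-20683200 had 769, 775 and 806 normalised counts after cocaine and 903, 866 and 910.1 after saline. The groups did not overlap and the libraries of each group lay close together. The log2 fold change was -0.19 ± 0.04 (SE, adjusted p = 0.000149), and it passed with each library left out, from -0.21 to -0.18. Region chr9:20691601-20693900, named after its values were seen, had 864, 849 and 920.2 normalised counts after cocaine and 943, 928 and 986 after saline. Its log2 fold change of -0.12 (adjusted p = 0.0317) did not pass without cocaine library 1 (0.158), cocaine library 2 (0.237), saline library 1 (0.0674) or saline library 3 (0.145), nor under cyclic loess scaling (0.0831) or with equal library totals (0.0568). The region with the highest mean count, chr9:20755901-20758100, had 1220.1, 1139 and 1203 normalised counts after cocaine and 1276, 1217 and 1284 after saline. Cocaine library 1 lay above saline library 2, so the groups overlapped, and the log2 fold change of -0.09 did not pass (adjusted p = 0.12), although it did without saline library 2 (adjusted p = 0.0473). The other 8 regions did not pass and the median over the 11 was -0.03.

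**Figure D3:**
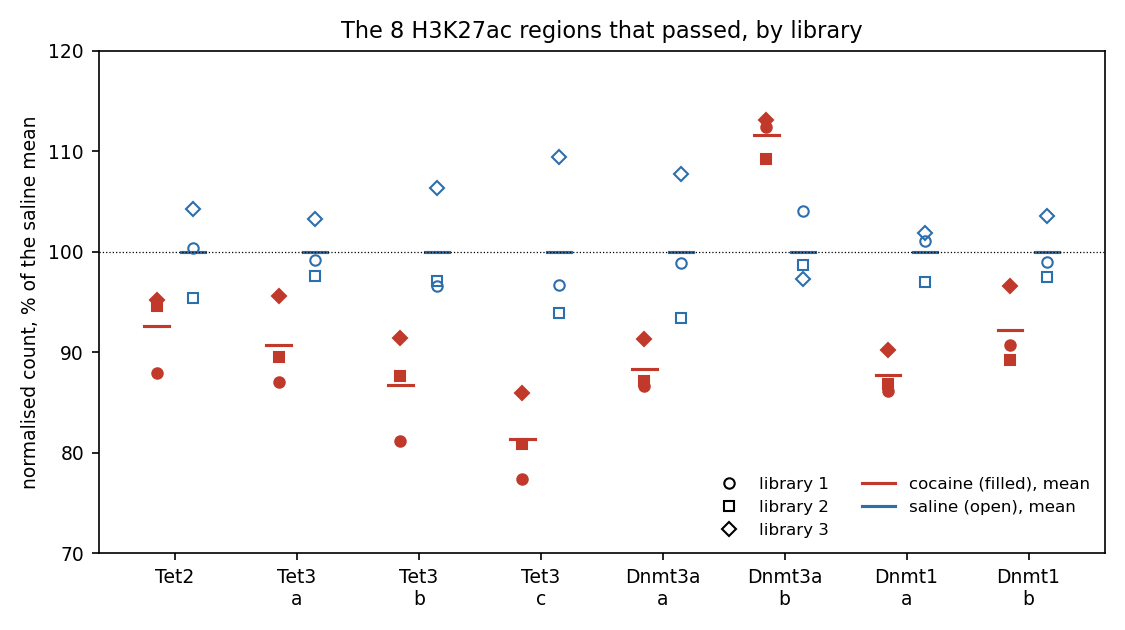
For each of the 8 H3K27ac regions that passed, the vertical axis gives the normalised count of each library as a percentage of the saline mean, with cocaine libraries filled and saline libraries open and the group mean as a line; letters number the regions of a window by position, and the axis starts at 70%. Saline library 3 (open diamond) is the highest saline library in the 7 lower regions, and the groups are farthest apart at the third Tet3 region.

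Summed over all listed regions of a window, H3K27ac was lower in every cocaine library than in every saline library at Tet2, Tet3 and Dnmt1, and not at Tet1 or Dnmt3a. Of 7053 stretches of 200 kb with at least 1 listed region, 31.0% had all cocaine sums below all saline sums and 8.71% had them all above, so such an order was common over the genome. The Tet3 sum was 12539, 12724 and 12813 normalised counts after cocaine and 12989, 13019 and 13662 after saline, a difference of -4.02% (-2.6% as a share of each library's total, -2.57% over regions that overlap no other and -2.4% without saline library 3). At Dnmt1 the sum was 7788, 7823 and 7908 after cocaine and 8180, 7933 and 8160.0 after saline, a difference of -3.11% (-1.69% as a share of each library's total and -6.06% over regions that overlap no other). The Tet2 sum is its single region, with a difference of -7.41%. For these 3 windows the exact two-sided permutation p was 0.1, the smallest that 3 libraries against 3 can give. The Tet1 sums were 4638 ± 71.6 after cocaine and 4692 ± 109 after saline (SD, n = 3 each; -1.14%, exact permutation p = 0.5). The Dnmt3a sums were 54144 ± 325 and 54224 ± 774 (SD, n = 3 each; -0.146%, exact permutation p = 1.0). The Tet1 and Dnmt3a differences changed sign, to 0.296% and 1.31%, when each sum was taken as a share of its library's total.

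**Figure D4:**
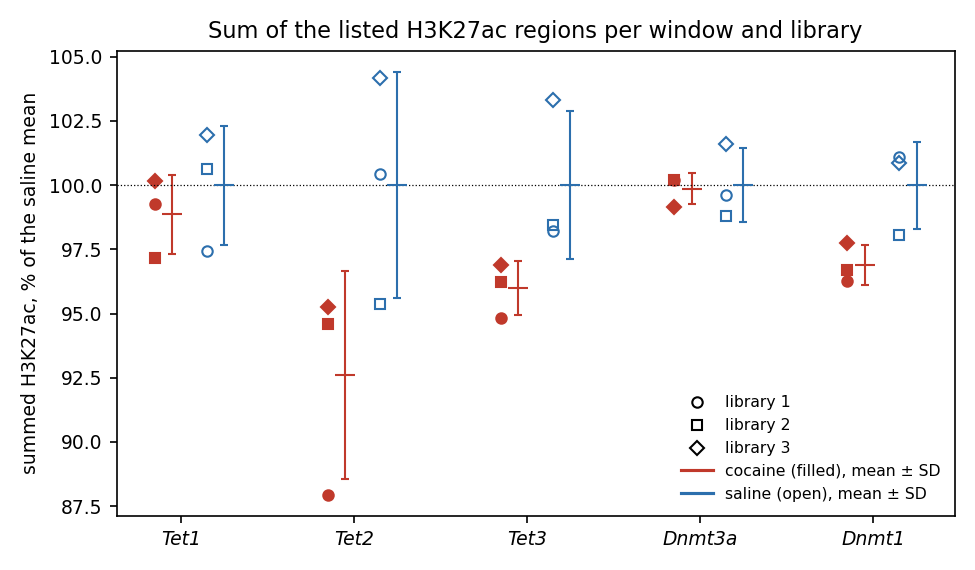
Each point is the summed normalised H3K27ac count of 1 library over all listed regions of a window, as a percentage of the saline mean, with group means and SDs beside the points; the vertical axis does not start at 0. The cocaine libraries lie below all saline libraries at Tet2, Tet3 and Dnmt1, and the groups overlap at Tet1 and Dnmt3a.

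The 5hmC table listed 6 regions in the windows, 1 at Tet1, 3 at Tet3 and 2 at Dnmt1, and none at Tet2 or Dnmt3a. After cocaine 2 of them were higher and 4 lower, against 58.5% higher and 41.5% lower in the whole table. The table holds regions picked for their difference, and 99.9% of all its regions have groups that do not overlap, so the values are given as a description with no test. They rest on few reads: 1 read was worth 0.896 to 1.23 normalised counts, and the median depth over the table was 5 to 7 reads per region and library. Libraries are given in the order of the table.

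The Tet1 region, chr10:62285801-62286080, had 8.65, 16.1 and 5.39 normalised counts after cocaine and 0.00, 2.06 and 3.95 after saline. These are 28 reads against 6, and the authors' deposited table gives a log2 fold change of 2.32 with an adjusted p-value of 0.14. It is the only Tet1 region of this mark, and it was higher in every cocaine library. It lay 32920 bp from the nearest listed H3K27ac region and 1320 bp from an interval of the cocaine-specific enhancer list.

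At Tet3 the 3 regions did not share a direction. Region chr6:83403221-83403420 had 2.88, 7.41 and 6.29 normalised counts after cocaine and 17.0, 14.4 and 10.9 after saline, 16 reads against 44, with a log2 fold change of -1.35 in the authors' deposited table. The nearest listed H3K27ac region, chr6:83403501-83405200 at 80 bp, had a log2 fold change of 0.02 that did not pass (adjusted p = 0.747), and the next one, chr6:83404901-83408100 at 1480 bp, is the one with the largest H3K27ac fall. The 5hmC region shares no bases with either, and the marks were measured in different libraries. Region chr6:83427841-83428040 had 0.96, 1.23 and 1.80 after cocaine and 8.07, 7.21 and 5.92 after saline, 4 reads against 22 and a log2 fold change of -2.41 in the authors' deposited table. Region chr6:83432701-83432940 went the other way, with 22.1, 16.1 and 10.8 after cocaine and 4.48, 6.18 and 6.91 after saline, 48 reads against 18 and a log2 fold change of 1.48 in the authors' deposited table. The nearest listed H3K27ac region to it, chr6:83436501-83438500 at 3560 bp, had a log2 fold change of 0.11 that did not pass (adjusted p = 0.0673), with overlapping groups.

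Both Dnmt1 regions were lower after cocaine. Region chr9:20724201-20724420 had 2.88, 3.70 and 3.59 normalised counts after cocaine and 15.2, 10.3 and 11.8 after saline, 10 reads against 39, with a log2 fold change of -1.88 in the authors' deposited table. Region chr9:20737901-20738100 had 0.96, 0.00 and 1.80 after cocaine and 5.38, 5.15 and 8.88 after saline, 3 reads against 20, with -2.81 in the authors' deposited table. Its ratio over background there was 0.22 after cocaine and 1.5 after saline. The same deposited ratio was 0.47 and 2.43 at Tet3 region chr6:83427841-83428040, and 2.33 and 0.48 at the Tet1 region. In the remaining regions both groups were above background. The deposited adjusted p-values of the 6 regions were 0.137 to 0.141, and the highest in the whole table was 0.149. None of the 6 overlapped a listed H3K27ac region, the distances being 80 to 32920 bp.

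**Figure D5:**
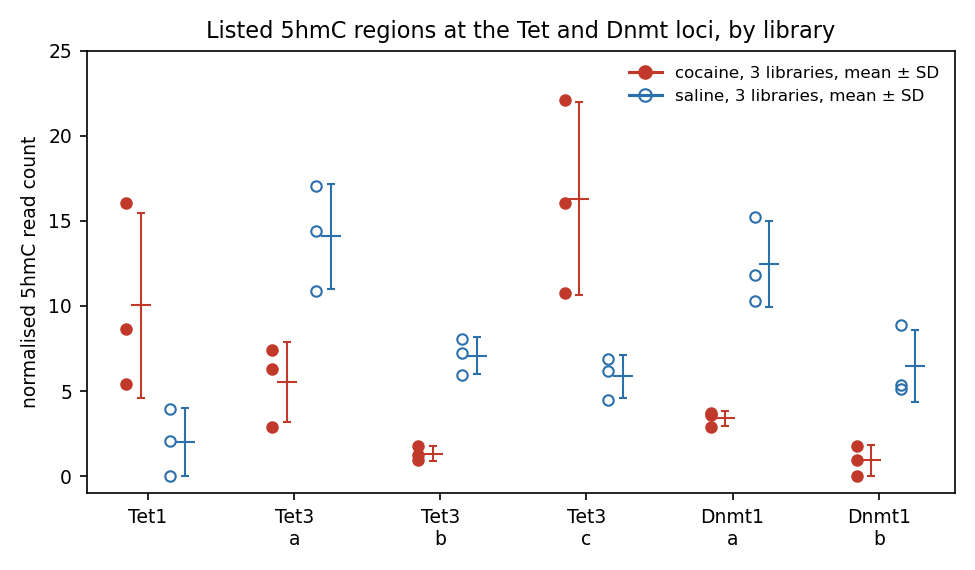
Points are the normalised 5hmC read counts of single libraries in the 6 listed regions, filled for cocaine and open for saline, with group means and SDs; letters number the regions of a window by position. The groups do not overlap in any of the 6, and 2 regions are higher and 4 lower after cocaine.

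The enhancer lists placed intervals at all 5 loci. The cocaine-specific list had chr10:62287401-62287600 at Tet1, chr3:133125401-133125800 and chr3:133245801-133246000 at Tet2, chr6:83305201-83305400 at Tet3, chr12:3924601-3924800 at Dnmt3a and chr9:20714401-20714800 at Dnmt1. The saline-specific list had chr10:62296001-62296200 at Tet1 and chr3:133250201-133250400 at Tet2. Windows of this size often hold such an interval: 39.0% of the stretches of 200 kb over the genome held a cocaine-specific one and 39.1% a saline-specific one, and 43.8% held a listed 5hmC region. At Tet1 and Tet2, intervals of both lists stood in the same window. None of the 8 overlapped a listed H3K27ac region, and the nearest such region was 4300 to 80500 bp away. The lists carry no values, so no level could be set beside these positions.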

How the data were processed

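H3K27ac and 5hmC were compared between 3 cocaine and 3 saline libraries each, grouped by the labels' treatment field. Per the submitters' processing notes, the aligner was Bowtie 0.12.9 and the build mm9. Per the file headers, the H3K27ac table was made with diffReps 1.54 (negative binomial test, window 1000 bp, step 100 bp, window p cutoff 0.0001). The caller of the 5hmC table, whose windows are 200 bp wide, and the making of the enhancer lists are not given in the sources used here. The authors' deposited group signal is the mean of 3 normalised counts, which stand beside it per library. The log2 fold change, the p-value and adjusted p-value, and the ratio of each group mean to a background library are the authors' deposited values and are named as theirs. Replicate order is that of the header for H3K27ac and only a position in the table for 5hmC.

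limma 3.58.1 in R 4.3.3 was fitted to log2(normalised count + 1) with a mean-variance trend, robust moderation and Benjamini-Hochberg adjustment over 49712 regions. Fold changes are on that scale and understate changes of low regions. Window sums were compared by exact permutation. Tables and figures were made in Python 3.11.15 with pandas 2.3.3, matplotlib 3.10.9, scipy 1.17.1 and numpy 2.4.6. Positions are 1-based. The regions described were, per window, that of the highest mean count and those of the largest rise and fall among regions that passed, or of the smallest p. The windows and lists were chosen with earlier results of these data known. Alternatives were other pseudocounts, scalings, variance estimates, thresholds, a minimum level and leaving out each library. The input libraries entered no test, and 1 library labelled as cerebellum input in one field and nucleus accumbens in another entered no comparison. Other genes of the pathway and markers of the tissue were not analysed here, since no mm9 annotation was used. No column of per-library values was left unused (0).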

Additional observations from a re-analysis of the deposited data

How the results depend on the processing

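Leaving out 1 library in turn gave 4 to 8 lower and 0 to 2 higher regions among the 95, and 3055 to 6918 that passed in the whole table, against 6479 with all libraries (3082 without cocaine library 1, 3055 without cocaine library 2, 3696 without saline library 3). With each region's own variance the counts were 0 lower, 0 higher and 2 in the whole table. At an adjusted p under 0.01 they were 4, 0 and 3259. The higher regions numbered 7 under cyclic loess scaling and 5 with equal library totals, where 7449 and 7422 regions passed in the whole table. Both scalings moved the median over all regions by 0.02 on the log2 scale. The other 5 settings of the fit (pseudocounts, a minimum mean of 50, placing by midpoint and plain moderation) gave 6 or 7 lower and 1 higher. Using only regions that overlap no other, added after seeing the data, gave 5 lower and 1 higher.

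The Tet1 sum turned from -1.14% to 0.296% as a share of the library total. The Dnmt3a sum turned from -0.146% to 1.31% as a share and to 0.612% over regions that overlap no other, and ranged from -0.737% to 0.649% with 1 library left out (0.2% without cocaine library 3, 0.649% without saline library 3). With 1 library left out the Tet1 sum ranged from -2.4% to -0.174%. The sums of Tet2, Tet3 and Dnmt1 kept their direction in every alternative run, with -9.5% to -5.07%, -4.86% to -2.4% and -4.04% to -2.57% when 1 library was left out. The Tet3 region chr6:83389701-83393100 turned from -0.04 to 0.01 (0.0069) under cyclic loess scaling. The cause of these shifts was not tested. At a deposited adjusted p-value under 0.1, 0 of the 6 5hmC regions are left; with at least 10 normalised counts in 1 group mean, 4 are left.

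Count tests on whole reads, planned as alternatives, were not run. No paired analysis was possible because the labels give the cocaine and saline libraries no shared number: the numbers 1 to 3 used here follow the order of the libraries and pair nothing. With 3 libraries per group an exact test cannot go below 0.1, and the 5hmC values rest on 3 to 48 reads per group and region.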

Other observations

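At these loci the deposited p-values of the H3K27ac table were often very small where the change was near 0. Over the whole table, the deposited adjusted p-value was under 0.05 in 4487 of the 6479 regions that passed in the limma test. It was so in 32739 (65.9%) of all 49712 regions. Of the 55 members whose log2 fold change lay within 0.05 of 0, 33 (60.0%) had a p-value under 1e-09 in the authors' deposited table, and over all regions the share was 61.9% of 21780. The Tet1 region chr10:62319001-62320000 had 329, 340.1 and 352 normalised counts after cocaine and 327, 325 and 350.2 after saline, and a p-value of 7.71e-11 in the authors' deposited table. The Dnmt3a region chr12:3901701-3903000, where the groups did not overlap, had 0.461 in the authors' deposited table.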
